A study of Mus musculus with 124 samples.

Results

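Levels of 10 genes of the basement membrane and its matrix were followed across blastocyst libraries: the laminin chains Lama1, Lama5, Lamb1 and Lamc1, the type IV collagen chains Col4a1 and Col4a2, the nidogens Nid1 and Nid2, and the matrix glycoproteins Sparc and Spp1. They are 10 of the 25239 gene symbols in the blastocyst table and were taken by name, with Spp1, Lama1 and Lamb1 chosen because their levels had been lower in the hCG blastocysts. The blastocyst difference between groups is therefore given for these genes as a description, and nothing is read from a test of it. How the genes vary together among libraries of 1 group, and their values in brain and oocytes, were not used to choose them and were tested.

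The study compared mice labelled hCG with mice labelled Ctrl. Human chorionic gonadotropin (hCG) is the hormone that is given to trigger ovulation. Females of the hCG group were in natural estrus and received 7.5 IU into the peritoneum, with no PMSG (a priming gonadotropin) beforehand. Uterine flushing on embryonic day 3.5 gave the blastocysts of both groups, and 28 libraries per group were made from polyadenylated RNA by the Smart-seq2 method. The tables for comparison held 6 libraries per group and came from the dorsal dentate gyrus (dDG, a part of the hippocampus) of the offspring and from oocytes at metaphase II. Mice in the labels' protocol for the dDG were 8 weeks old. Oocytes of the hCG group were collected 14 h after injection while Ctrl oocytes were taken the next morning from females kept with a sterile male, so male contact and timing differed between the oocyte groups. The sources used here give neither the strain nor how the Ctrl blastocysts were conceived, and the labels enter the exposure in the field for genotype. They also do not say whether libraries of a group come from separate animals or litters, so p-values measure the spread between libraries.

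A basement membrane is a thin sheet of matrix on which epithelial cells rest. Laminins are trimers of an alpha, a beta and a gamma chain that bind integrins and dystroglycan on the cell surface and assemble first. A network of type IV collagen, itself a trimer of chains, is joined to the laminin sheet by nidogens and by the proteoglycan perlecan. In the late blastocyst the primitive endoderm is known as a strong source of these proteins, and its basement membrane lies between it and the epiblast. Sparc is a collagen-binding glycoprotein of such membranes, and Spp1 (osteopontin) is a secreted phosphoprotein that binds integrins and has a long-known regulatory element for Oct4, the product of Pou5f1.

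Promoter windows of 300 bases (250 before to 50 after an annotated start, RefSeq, GRCm38.p6) were held for 7 of the 10 genes: Spp1, Lama5, Lamb1, Col4a1, Col4a2, Nid1 and Sparc. The windows of Spp1 are shown because its levels spanned the widest range among blastocysts, and that of Col4a2 because it also holds the start of Col4a1, the gene with which it varied most closely. All are on the plus strand and read 5′ to 3′. In the first Spp1 window, chr5:104434861-104435160, capitals mark a TATAAA sequence at -211 and a CCAAT sequence, read on the other strand, at -46 relative to the annotated start. In the second, chr5:104435942-104436241, which belongs to a downstream start, capitals mark an octamer, ATGCAAAT, the sequence that Oct factors are known to bind.
Spp1, first start: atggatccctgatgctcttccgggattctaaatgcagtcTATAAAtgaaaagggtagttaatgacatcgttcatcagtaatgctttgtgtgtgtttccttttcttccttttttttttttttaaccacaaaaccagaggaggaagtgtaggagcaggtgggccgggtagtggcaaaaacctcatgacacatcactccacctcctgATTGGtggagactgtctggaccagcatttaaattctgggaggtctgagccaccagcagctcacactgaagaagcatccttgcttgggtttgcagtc
Spp1, second start: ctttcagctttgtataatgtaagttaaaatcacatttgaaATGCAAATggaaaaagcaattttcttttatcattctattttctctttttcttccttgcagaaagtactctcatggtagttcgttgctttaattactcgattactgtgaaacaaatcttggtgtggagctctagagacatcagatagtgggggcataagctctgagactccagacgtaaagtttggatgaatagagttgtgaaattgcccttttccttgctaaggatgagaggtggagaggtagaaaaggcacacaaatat
Col4a2: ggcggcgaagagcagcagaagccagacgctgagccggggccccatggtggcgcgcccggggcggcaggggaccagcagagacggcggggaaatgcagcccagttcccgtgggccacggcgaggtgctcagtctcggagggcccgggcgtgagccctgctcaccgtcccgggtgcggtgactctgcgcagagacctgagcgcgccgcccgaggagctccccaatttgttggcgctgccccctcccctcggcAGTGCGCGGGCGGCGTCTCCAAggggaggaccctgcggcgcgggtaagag
The octamer lies at chr5:104435982-104435989, 871 bases after the first Spp1 start. Searched on both strands, its letters occurred in 570 of 32817 promoter windows (1.74%), CCAAT in 37.4% and TATAAA in 13.6%. In the Col4a2 window, chr8:11312555-11312854, capitals mark the 22 bases from the Col4a2 start (11312805, plus strand) to the Col4a1 start (11312826, minus strand). The 2 collagen genes are read away from each other, and their 300-base windows share 78 bases. A GGGCGG sequence (GC box, on either strand), present in 35.6% of all windows, was found in the windows of Lama5, Lamb1, Col4a1, Col4a2 and Nid1. These matches describe the letters and show no binding.

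Estimated depth ran from 3043231 to 10859379 reads in blastocysts, from 14941552 to 17799935 in the dDG and from 2375645 to 6910882 in oocytes. Levels are in CPM, reads scaled to the library's total with TMM factors. In blastocysts all 14 trophectoderm, all 12 epiblast and all 11 primitive endoderm markers were detected in both groups. More genes were detected per library in hCG blastocysts (mean 13548, SD 335) than in Ctrl blastocysts (mean 12967, SD 798, n = 28 each). In hCG blastocysts 5 libraries (1, 3, 4, 22 and 23) held both Xist and Y-linked transcripts at 30 CPM or more, and no Ctrl library did, and blastocyst fold changes of the 10 genes and correlations in hCG are given with and without them. For blood, stromal and uterine cells the summed marker level ran from 12.01 to 164.0 CPM in Ctrl and from 32.9 to 294.5 CPM in hCG blastocysts, with 7 and 5 of 20 markers at 0 in every library. Of the 5 of these markers that could be tested (median log2 fold change 0.69), H2-Ab1 was higher in hCG (0.98 ± 0.26, SE, limma adjusted p = 0.00771, 23 of 28 libraries over the Ctrl median), and their part in the results was not tested. In hCG dDG library 6 the choroid plexus transcript Ttr reached 9039 CPM, against 71.9 CPM at most in Ctrl dDG.

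The laminin alpha 1 chain, Lama1, is known as the main alpha chain of the early embryo's basement membranes. It ran from 1.52 to 99.1 CPM among Ctrl blastocysts (median 18.2) and from 0.193 to 45.9 CPM among hCG blastocysts (median 10.9). The groups overlapped over most of this range, and 23 of 28 hCG libraries lay below the Ctrl median. The log2 fold change was -1.09 ± 0.32 (SE), and -0.98 without the 5 libraries that held both sexes' transcripts. Log2 fold changes are hCG against Ctrl throughout. Those of the main blastocyst fit are on the log2(CPM + 1) scale, while those of the dDG and oocytes come from count models without the added 1. The sizes are therefore not alike for genes with low levels.

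Lama5 encodes another alpha chain, found in the basement membranes of many epithelia. It had a lowest, median and highest level of 10.6, 34.4 and 103.3 CPM in Ctrl and of 25.2, 45.3 and 63.5 CPM in hCG blastocysts. The hCG values lay entirely inside the Ctrl range. The median was higher in hCG, where 21 of 28 libraries exceeded the Ctrl median, but the log2 fold change was 0.15 ± 0.15 (SE).

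Lamb1, the beta chain that joins either alpha chain, had a lowest, median and highest level of 14.1, 52.3 and 246.6 CPM in Ctrl and of 13.03, 34.6 and 103.4 CPM in hCG blastocysts. The groups overlapped, with 24 of 28 hCG libraries below the Ctrl median. Its log2 fold change was -0.69 ± 0.20 (SE), and -0.50 without the 5 libraries. Libraries 3, 4 and 23 of those 5 held 13.03, 13.09 and 16.96 CPM, near the low end of their group.

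Lamc1 encodes the gamma chain of the same trimers. Its levels ran from 19.7 to 132.1 CPM in Ctrl (median 44.2) and from 17.2 to 87.4 CPM in hCG blastocysts (median 37.8), with 22 of 28 hCG libraries below the Ctrl median. The log2 fold change was -0.37 ± 0.16 (SE), and the groups overlapped over most of their range.

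Col4a1 and Col4a2 encode the chains that form the common type IV collagen trimer. Col4a1 ran from 4.53 to 53.3 CPM in Ctrl (median 25.5) and from 4.30 to 48.8 CPM in hCG blastocysts (median 16.4). Col4a2 ran from 0.378 to 40.0 CPM in Ctrl (median 14.1) and from 4.60 to 30.3 CPM in hCG blastocysts (median 10.2). The log2 fold changes were alike, -0.41 ± 0.21 (SE) for Col4a1 and -0.40 ± 0.22 for Col4a2. Although the ranges overlapped, 25 and 22 of 28 hCG libraries lay below the respective Ctrl median.

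The linker Nid1 had a lowest, median and highest level of 16.04, 55.8 and 121.9 CPM in Ctrl and of 20.5, 38.4 and 88.3 CPM in hCG blastocysts, and 22 of 28 hCG libraries lay below the Ctrl median. Its log2 fold change was -0.45 ± 0.15 (SE). Nid2, the second nidogen, was sparse in both groups, at 0 to 16.2 CPM in Ctrl (median 4.78) and 0 to 20.9 CPM in hCG (median 4.55). Its log2 fold change was -0.08 ± 0.25 (SE).

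Sparc ran from 20.1 to 214.0 CPM in Ctrl (median 99.1) and from 24.8 to 313.3 CPM in hCG blastocysts (median 92.1). The groups overlapped over nearly their whole range, with a log2 fold change of 0.02 ± 0.19 (SE) and 16 of 28 hCG libraries below the Ctrl median.

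Spp1 spanned the widest range of the 10 genes. It had a lowest, median and highest level of 2.27, 41.4 and 409.8 CPM in Ctrl and of 0, 11.1 and 148.9 CPM in hCG blastocysts, where 2 libraries held no read of it. In hCG 7 libraries lay below the lowest Ctrl library and 22 of 28 lay below the Ctrl median, while the upper hCG libraries reached well into the Ctrl range. The log2 fold change was -2.16 ± 0.54 (SE), and -1.81 without the 5 libraries, of which 4, 22 and 23 held 0, 2.50 and 0.193 CPM. For the other genes the log2 fold change without the 5 libraries was 0.21 for Lama5, -0.31 for Lamc1, -0.40 for Col4a1, -0.45 for Col4a2, -0.44 for Nid1, -0.05 for Nid2 and 0.08 for Sparc.

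**Figure D1:**
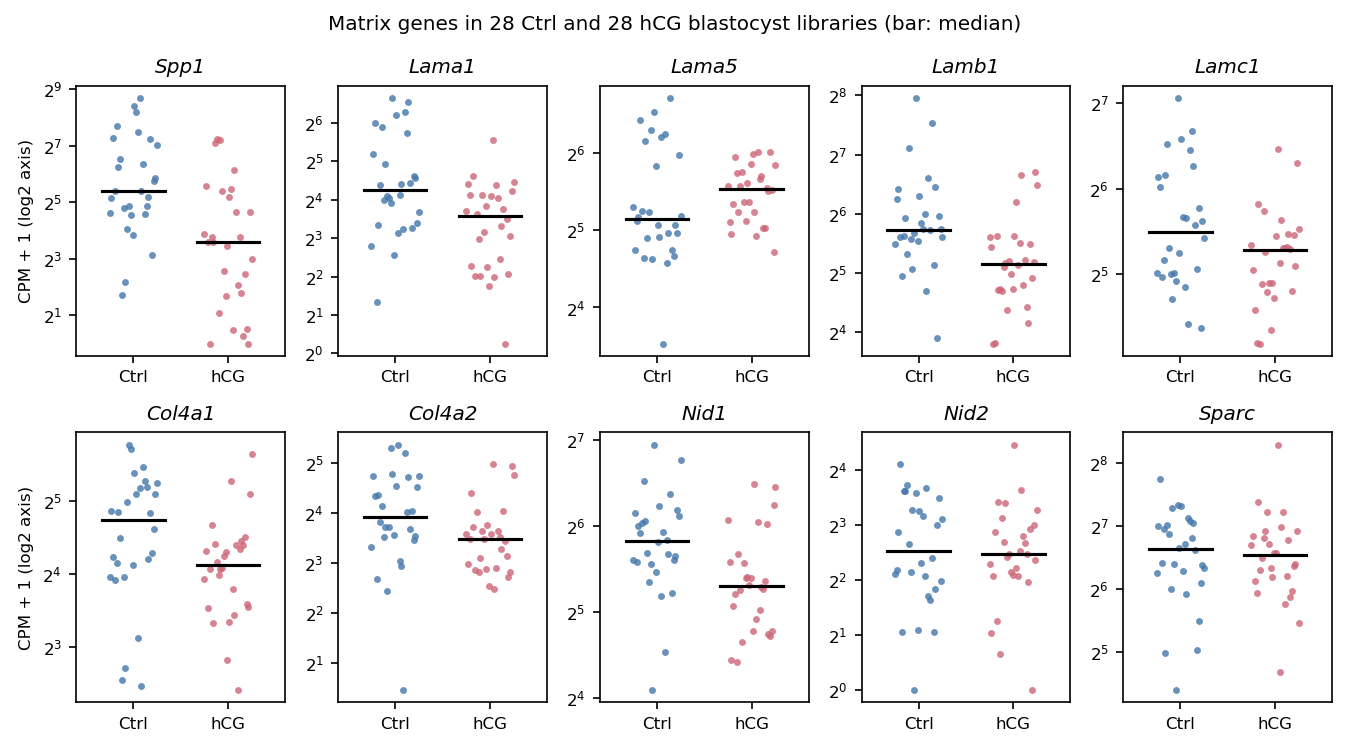
Level of each of the 10 genes in blastocysts, as CPM + 1 on a log2 axis that differs between panels, with 1 point per library (28 Ctrl, 28 hCG) and a bar at the median. The hCG points of Spp1, Lama1 and Lamb1 sit lower but overlap those of Ctrl, Lama5 is narrower in hCG, and the medians of Sparc and Nid2 are close.

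In total 8 of the 10 genes had a negative log2 fold change, with a median of -0.41 over the 10 against 0.02 over all 10850 genes tested. All 10 passed the low-count filter. By the criterion applied to all genes (limma, adjusted p below 0.05) 4 of the 10 would be called lower and 0 higher, where 7.59% of all genes tested were called lower and 8.68% higher. The genes were picked on this contrast, so nothing is read from that count. The gene closest to the threshold inside it was Nid1 (log2 fold change -0.45) and the closest outside it was Lamc1 (-0.37). In bulk libraries, fewer cells of a type and less RNA per cell cannot be told apart.

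Directions were not all independent of scaling. With the deposited values left unscaled, the median log2 fold change of all genes was 0.49, against 0.02 in the main fit. The log2 fold changes then became 0.06 for Lamc1, 0.004 for Col4a1, 0.06 for Col4a2 and 0.26 for Nid2. Those of Spp1 (-2.68), Lama1 (-0.82), Lamb1 (-0.27) and Nid1 (-0.02) stayed negative. With genes detected as a covariate Sparc changed from 0.02 to -0.37 and Lama5 from 0.15 to 0.01. With the mean of the primitive endoderm markers as a covariate Spp1 was at -1.99, Lama1 at -0.91 and Lamb1 at -0.60.

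The genes differed in how much they varied among blastocysts of 1 group. On the log2(CPM + 1) scale the SD of Spp1 was 1.78 in Ctrl and 2.23 in hCG, larger than that of 99.6% and 99.9% of the 10850 genes tested. The SD of Lama1 was 1.32 and 1.16, larger than that of 98.3% and 98.2% of genes. Lama5 was near the middle of all genes in Ctrl (0.749, above 59.9%) and below it in hCG (0.364, above 24.3%), where the median SD of all genes was also lower, at 0.493 against 0.664 in Ctrl. The remaining 7 genes lay above 41.4% to 88.9% of genes in Ctrl and above 58.9% to 93.8% in hCG.

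Whether the genes varied together was tested within each group separately, over 45 pairs in each of the 2 groups (90 relations, two-sided permutation test, Benjamini-Hochberg adjustment over the 90). In Ctrl 6 pairs passed the threshold of 0.05 and in hCG 9, all with a positive correlation, and 3 pairs passed in both. Over all 45 pairs Pearson's r ran from -0.35 to 0.77 in Ctrl (median 0.25) and from -0.33 to 0.65 in hCG (median 0.28). Libraries that share depth, quality or stage share them for all genes, so these correlations describe covariation only.

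The pair with the highest correlation was Col4a1 and Col4a2, the genes with the shared start region shown above. In Ctrl r was 0.77 (n = 28, rho 0.77, permutation adjusted p = 0.0009 for r and 0.0027 for rho) and in hCG r was 0.65 (n = 28, rho 0.60, permutation adjusted p = 0.0069 for r and 0.0121 for rho). Without the 2 libraries farthest from the median of Col4a1, r was 0.75 in Ctrl and 0.70 in hCG. The relation was thus present in both groups and did not rest on the most extreme libraries.

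Lama1 and Lamb1, the alpha and beta chains of 1 trimer, also varied together in both groups. In Ctrl r was 0.56 (n = 28, rho 0.60, permutation adjusted p = 0.015 for r and 0.0121 for rho) and in hCG r was 0.58 (n = 28, rho 0.63, permutation adjusted p = 0.0137 for r and 0.00833 for rho). Leaving out the 2 farthest libraries gave 0.52 and 0.49. The remaining pair was Lamc1 and Nid1, the laminin chain that carries the nidogen-binding site and its ligand, with r of 0.52 in Ctrl and 0.53 in hCG (n = 28 each, permutation adjusted p = 0.0229 for both). Its rho was 0.50 in Ctrl (permutation adjusted p = 0.0476) but 0.35 in hCG (permutation adjusted p = 0.188), and r in hCG fell to 0.35 without the 2 farthest libraries, so there the relation rests on those libraries.

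**Figure D2:**
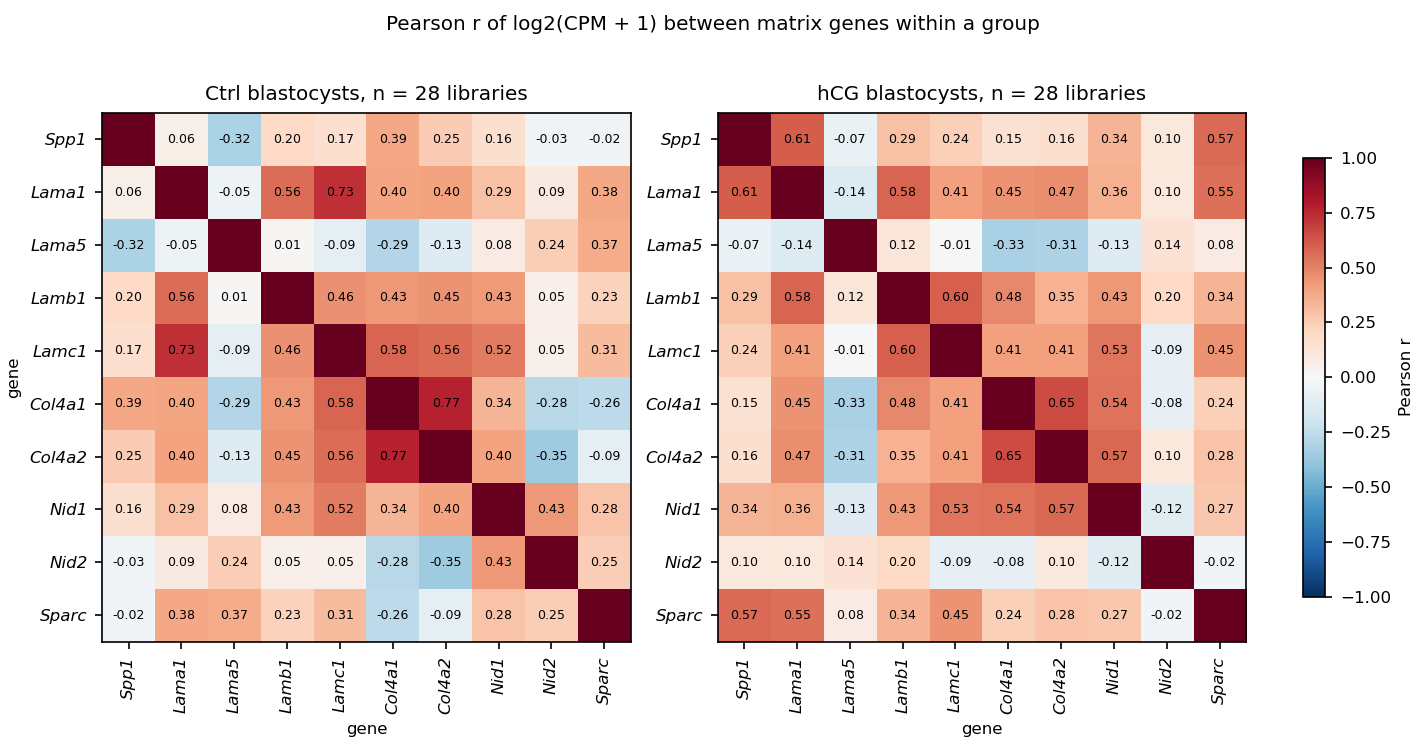
Pearson's r of log2(CPM + 1) for every pair of the 10 genes, in 28 Ctrl libraries (left) and 28 hCG libraries (right), with red for positive and blue for negative r. Pairs among Lama1, Lamb1, Lamc1, the collagens and Nid1 are all positive in both panels, and Col4a1 with Col4a2 is the strongest (r 0.77 and 0.65).

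In Ctrl the other pairs past the threshold joined Lamc1 to Lama1 (r 0.73, n = 28, permutation adjusted p = 0.00135), to Col4a1 (0.58, permutation adjusted p = 0.0137) and to Col4a2 (0.56, permutation adjusted p = 0.0137). In hCG r was 0.41 for each of these pairs and did not pass (permutation adjusted p from 0.0997 to 0.1). In hCG the others were Lamb1 with Lamc1 (r 0.60), Col4a2 with Nid1 (0.57), Lama1 with Sparc (0.55) and Col4a1 with Nid1 (0.54), each at n = 28 with a permutation adjusted p between 0.0137 and 0.019. Those 4 pairs had r of 0.46, 0.40, 0.38 and 0.34 in Ctrl. For both Nid1 pairs rho did not pass (permutation adjusted p = 0.0789 with Col4a1 and 0.0896 with Col4a2). Lama5 and Nid2 took part in none of the pairs called in either group: r of Lama5 with the other 9 genes ran from -0.32 to 0.37 in Ctrl and from -0.33 to 0.14 in hCG.

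Spp1 varied with Lama1 and with Sparc in hCG, while both correlations were near 0 in Ctrl. Spp1 and Lama1 had r of 0.06 in Ctrl (n = 28, rho 0.001, permutation adjusted p = 0.827 for r and 0.997 for rho) and of 0.61 in hCG (n = 28, rho 0.59, permutation adjusted p = 0.0106 for r and 0.0121 for rho). Spp1 and Sparc had r of -0.02 in Ctrl and of 0.57 in hCG (n = 28, rho 0.64, permutation adjusted p = 0.0137 for r and 0.00833 for rho). Neither rested on the 2 farthest libraries, without which r in hCG was 0.65 and 0.56. The difference in r between the groups was not tested. Without the 5 libraries that held both Xist and Y-linked transcripts, r in hCG was 0.56 for Spp1 with Lama1 and 0.55 for Spp1 with Sparc, 0.68 for Lama1 with Lamb1, 0.69 for Col4a1 with Col4a2 and 0.52 for Lamc1 with Nid1 (23 libraries, permutation adjusted p between 0.00675 and 0.0495), and the number of hCG pairs past the threshold was 15 in place of 9. Those 15 held all 9 of the pairs named for hCG, and Lamc1 with Col4a2 also passed there (r 0.57, permutation adjusted p = 0.0239).

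**Figure D3:**
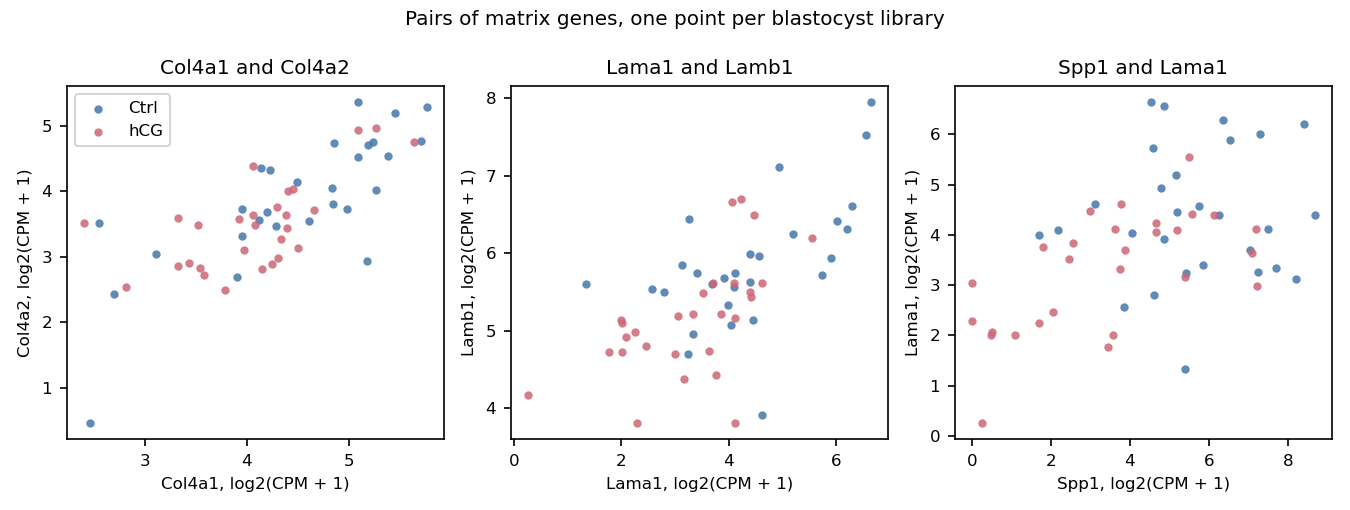
Scatter of 3 pairs of genes, each axis log2(CPM + 1), with 1 point per blastocyst library (28 Ctrl, 28 hCG). Col4a1 with Col4a2 and Lama1 with Lamb1 rise together in both groups, while Spp1 with Lama1 does so among the hCG points (r 0.61) and not among the Ctrl points (r 0.06).

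Levels of the genes were then set beside 5 measures of each library: the mean log2 level of the primitive endoderm, epiblast and trophectoderm markers, the number of genes detected and the depth (100 relations over both groups, permutation test, adjusted over the 100). In Ctrl 11 relations passed the threshold and in hCG 7, all positive. Lama1 rose with the primitive endoderm markers in Ctrl (r 0.69, n = 28, rho 0.62, permutation adjusted p = 0.0025 for r) and in hCG (r 0.65, rho 0.60, permutation adjusted p = 0.0036). It rose as closely with the trophectoderm markers, at r of 0.70 in Ctrl (rho 0.69, permutation adjusted p = 0.00167) and 0.82 in hCG (rho 0.74, permutation adjusted p = 0.0005). These hCG values were 0.55 and 0.75 without the 5 libraries (permutation adjusted p = 0.0459 and 0.00233). Those marker lists share no gene with the 10 described here.

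Primitive endoderm markers also varied with Lamc1 (r 0.79 in Ctrl and 0.45 in hCG), Lamb1 (0.61 and 0.33), Col4a1 (0.49 and 0.31) and Nid1 (0.50 and 0.15), where the Ctrl value but not the hCG value of r passed the threshold (n = 28, permutation adjusted p in Ctrl from 0.0005 to 0.0467). Without the 5 libraries r in hCG was 0.58 for Lamc1, which then passed (permutation adjusted p = 0.0421), 0.46 for Lamb1, 0.43 for Col4a1 and 0.37 for Nid1. For Col4a2 r was 0.49 in Ctrl and 0.50 in hCG, both at a permutation adjusted p of 0.0459, and 0.40 and 0.34 without the 2 farthest libraries. In hCG it was 0.61 without the 5 libraries (permutation adjusted p = 0.0322). Spp1 had r of 0.28 with them in Ctrl and 0.49 in hCG, and with the trophectoderm markers of -0.21 and 0.56, with the hCG values past the threshold (permutation adjusted p = 0.0459 and 0.0189). Without the 5 libraries these 2 values for Spp1 were 0.48 and 0.51, with a permutation adjusted p of 0.0781 and 0.0636, and no longer passed. With the epiblast markers Spp1 had r of 0.46 in Ctrl (rho 0.57, permutation adjusted p = 0.0604 for r and 0.0192 for rho) and of 0.30 in hCG (rho 0.41, permutation adjusted p = 0.259 for r and 0.117 for rho). Nid1 in Ctrl passed with the epiblast markers by r (0.55, permutation adjusted p = 0.0304) but not by rho (0.33, permutation adjusted p = 0.211). Sparc rose with the number of genes detected in both groups (r 0.59 and 0.58, permutation adjusted p = 0.0262 and 0.0176), though in Ctrl r fell to 0.32 without the 2 farthest libraries. In hCG it was 0.56 without the 5 libraries (permutation adjusted p = 0.0459). Sparc also passed with the trophectoderm markers in hCG, at r of 0.54 without the 5 libraries (permutation adjusted p = 0.0459). With them Sparc had r of 0.43 in Ctrl (rho 0.52, permutation adjusted p = 0.0837 for r and 0.0487 for rho). Lamc1 in Ctrl passed with genes detected by r (0.48, permutation adjusted p = 0.0459) but not by rho (permutation adjusted p = 0.079). Depth passed the threshold with 1 gene, Nid2 in Ctrl (r 0.49, permutation adjusted p = 0.0459), which is the gene with the fewest reads of the 10 in blastocysts. Its rho with depth did not pass (0.45, permutation adjusted p = 0.0755), and r was 0.32 without the 2 farthest libraries.

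Single lineage factors were examined after the data had been seen (6 factors, 120 relations, permutation test, adjusted over the 120). In Ctrl 13 of 60 relations passed the threshold by r, 12 of them positive, and in hCG 9 of 60, 8 of them positive. Gata4, a transcription factor of the primitive endoderm, varied with Lama1 (r 0.78 in Ctrl, 0.57 in hCG), Lamb1 (0.59 and 0.60), Lamc1 (0.74 and 0.48) and Sparc (0.55 and 0.59), each past the threshold in both groups (n = 28, permutation adjusted p from 0.0012 to 0.0475). Sox17, another factor of that lineage, varied in both groups with Lama1 (r 0.67 and 0.61, permutation adjusted p = 0.0015 and 0.0103). Nanog, a factor of the epiblast, had a negative r with Lama1 in Ctrl (-0.52, permutation adjusted p = 0.0372) and with Lamb1 in hCG (-0.49, permutation adjusted p = 0.0461), but neither rho passed (permutation adjusted p = 0.0936 and 0.133). Lamb1 with Nanog was at -0.48 in Ctrl (permutation adjusted p = 0.0519). Without the 5 libraries r in hCG was 0.58 for Gata4 with Lama1, 0.58 with Lamb1 and 0.56 with Sparc (permutation adjusted p = 0.035 each) and 0.64 for Sox17 with Lama1 (permutation adjusted p = 0.0119). Gata4 with Lamc1 (0.41, permutation adjusted p = 0.176) and Nanog with Lamb1 (-0.34, permutation adjusted p = 0.282) no longer passed there. Nid1 varied with Gata6 in Ctrl (r 0.74, permutation adjusted p = 0.0012) and had r of -0.09 with it in hCG. Gata6 also varied in Ctrl with Col4a1 (r 0.55, permutation adjusted p = 0.0211) and, by r only, with Col4a2 (0.50, permutation adjusted p = 0.0413). Sox17 did so there with Lamb1 (0.66, permutation adjusted p = 0.00288) and Lamc1 (0.56, permutation adjusted p = 0.021). In hCG without the 5 libraries r was 0.08, 0.04, 0.40 and 0.43 for these pairs in that order, none past the threshold. In Ctrl Nid1 also varied with Sox2, of the epiblast list (r 0.63, permutation adjusted p = 0.0076), though rho did not pass (permutation adjusted p = 0.0622). Lama5 varied with Pou5f1 in Ctrl (r 0.50, permutation adjusted p = 0.0422). Without the 5 libraries r in hCG was 0.25 for Nid1 with Sox2 and -0.05 for Lama5 with Pou5f1. Spp1 had r of -0.21 in Ctrl and -0.20 in hCG with Pou5f1, which encodes an Oct factor, at a permutation adjusted p of 0.489 and 0.518. Part of any of these relations may be shared depth or stage, which was not tested.

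The genes most like each of 4 members, by the mean of Spearman's rho in the 2 groups (28 libraries each, genes with a mean of at least 20 CPM), are given as a description. Each gene is given with its mean rho and the values in Ctrl and hCG. For Lama1 they were Lgals1 (0.72, from 0.81 and 0.63), Tspan8 (0.71, from 0.64 and 0.78), BC051665 (0.70, from 0.72 and 0.67), Lima1 (0.69, from 0.69 and 0.70), and Upp1 (0.69, from 0.63 and 0.74). For Lamb1 they were Uhrf1 (0.71, from 0.75 and 0.66), Lig1 (0.64, from 0.64 and 0.65), Lama1 (0.62, from 0.60 and 0.63), Larp7 (0.61, from 0.74 and 0.48), and Htatsf1 (0.60, from 0.65 and 0.55). For Col4a2 they were Col4a1 (0.68, from 0.77 and 0.60), Trim28 (0.62, from 0.66 and 0.57), Satb1 (0.53, from 0.58 and 0.48), Jarid2 (0.48, from 0.59 and 0.38), and Nomo1 (0.47, from 0.42 and 0.53). For Spp1 they were Gm12169 (0.57, from 0.48 and 0.66), Pla2g10 (0.56, from 0.48 and 0.65), Tdgf1 (0.55, from 0.41 and 0.70), Fblim1 (0.55, from 0.42 and 0.68), and Slc25a5 (0.54, from 0.50 and 0.59).

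Other genes of the pathway were taken from 7 lists with 115 genes, of which 65 could be tested in blastocysts (limma, adjusted over 10850 genes). In hCG blastocysts 11 were lower and 7 higher, 27.7% of those tested where 16.3% of all genes were called, with a median log2 fold change of -0.05. These lists were chosen with earlier results of these data known, so that share is a description. Of 12 tested proteoglycans and linker proteins 4 were lower and 2 higher. Sdc1, a transmembrane heparan sulfate proteoglycan, rose by 1.18 ± 0.22 (SE, limma adjusted p = 0.000443), and 27 of 28 hCG libraries were higher than the median Ctrl library. Its median level was 5.43 CPM in Ctrl and 12.4 CPM in hCG. Fibulin Fbln2 was higher by 1.07 ± 0.24 (limma adjusted p = 0.00185), from medians of 0.270 to 2.91 CPM. Fibronectin, Fn1, a matrix protein bound by integrins, was at -0.72 ± 0.21 (limma adjusted p = 0.0153, 25 of 28 hCG libraries below the Ctrl median) and Fras1, a basement membrane protein, at -0.99 ± 0.26 (limma adjusted p = 0.0062). The fibulins Fbln1 (-0.46 ± 0.14, limma adjusted p = 0.0181) and Efemp1 (-0.56 ± 0.20, limma adjusted p = 0.0443) complete the calls. Without the 5 libraries the calls of Fn1 (limma adjusted p = 0.0541) and Efemp1 (limma adjusted p = 0.0805) were lost.

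Among 10 tested matrix receptors 1 was called, where 16.3% of all genes tested were. It was Itga6, the alpha subunit of laminin-binding integrins, at -0.42 ± 0.13 (SE, limma adjusted p = 0.0201). Its median was 61.8 CPM in Ctrl and 45.2 CPM in hCG blastocysts. Of 13 integrin adaptor proteins Ptk2, the focal adhesion kinase, was lower, at -0.57 ± 0.14 (limma adjusted p = 0.00343), Lims1 at -0.40 ± 0.10 (limma adjusted p = 0.00393) and Vcl, vinculin, at -0.51 ± 0.14 (limma adjusted p = 0.0106), while Parvb was higher, at 0.39 ± 0.14 (limma adjusted p = 0.0494). Parvb lost its call under 8 of 11 other settings. Lama3, a laminin chain of other trimers, missed the threshold (0.58 ± 0.25, limma adjusted p = 0.0913), and no other basement membrane collagen passed the filter.

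Of 14 genes of collagen and laminin biosynthesis Ppib, a prolyl isomerase of the endoplasmic reticulum, was lower (-0.24 ± 0.07, SE, limma adjusted p = 0.0127) and Loxl2, a cross-linking lysyl oxidase, higher (0.57 ± 0.18, limma adjusted p = 0.0242). Over all genes tested 7.59% were called lower and 8.68% higher. Of 14 proteases and inhibitors, Adam19 was lower (-1.13 ± 0.25, limma adjusted p = 0.00171, 14 of 28 hCG libraries below the lowest Ctrl library) and Adam10 as well (-0.31 ± 0.11, limma adjusted p = 0.0488). Ctsb, a lysosomal protease (0.42 ± 0.13, limma adjusted p = 0.0251), Plau, the urokinase (0.78 ± 0.25, limma adjusted p = 0.0277), and the gelatinase Mmp9 (0.81 ± 0.26, limma adjusted p = 0.0294) were higher. On the unscaled values Itga6 (0.0033), Lims1 (0.026), Ppib (0.19) and Adam10 (0.13) changed sign. With genes detected as a covariate, Itga6, Vcl, Ppib, Fn1, Ctsb, Plau, Mmp9, Adam10, Efemp1 and Parvb lost their calls. Adam10 and Parvb also lost theirs without the 5 libraries (limma adjusted p = 0.133 and 0.15). Over the 11 other settings, and with the sign kept, Efemp1 lost its call under 9, and Adam10, Mmp9 and Plau under 4 each. With 1 library left out, Efemp1 lost its call in 29 of 56 fits, Parvb in 36 and Adam10 in 38.

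Markers of the blastocyst's lineages were tested in the same contrast. Their lists were chosen with earlier results of these data known, so the counts of calls are a description. Of 14 trophectoderm markers 7 were lower in hCG blastocysts and 0 higher (limma, median log2 fold change -0.49), where 7.59% of all genes were called lower, and their summed level ran from 4394 to 14640 CPM in Ctrl (median 7764) and from 2679 to 10640 CPM in hCG (median 6316). Of 10 tested primitive endoderm markers 1 was lower (Lrp2, -0.35 ± 0.09, limma adjusted p = 0.00933) and 1 higher (Amn, 1.09 ± 0.24, limma adjusted p = 0.00173), with a summed level of 1305 to 2676 CPM in Ctrl and 1260 to 2253 CPM in hCG. Gata4 (-0.55 ± 0.34, limma adjusted p = 0.27), Sox17 (-0.64 ± 0.38, limma adjusted p = 0.242) and Pdgfra (-0.44 ± 0.36, limma adjusted p = 0.424) did not pass. The covariate fit above used the primitive endoderm markers, and the part of the trophectoderm in the levels of the laminins and Spp1 was not tested.

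In the offspring's dDG all 10 genes passed the filter and were tested (edgeR, adjusted over 13853 genes). Of the 10, 1 was called, in the direction of higher, where 7.86% of all genes tested were called (4.66% higher and 3.2% lower). Col4a2 rose from 41.2, 37.3, 38.6, 37.6, 39.2 and 40.2 CPM in Ctrl libraries 1 to 6 to 40.3, 48.2, 44.4, 49.5, 45.2 and 49.8 CPM in hCG libraries 1 to 6. Among hCG libraries 5 of 6 exceeded every Ctrl library, and the log2 fold change was 0.24 ± 0.06 (SE, edgeR adjusted p = 0.0215). The call was lost without Ctrl library 2 (edgeR adjusted p = 0.0513), and with the replicate number as a block (edgeR adjusted p = 0.0801), though the numbers do not pair the libraries. Its partner Col4a1 had a log2 fold change of 0.28 ± 0.15 (SE, edgeR adjusted p = 0.267), with 23.8 to 30.0 CPM in Ctrl (median 25.8) and 23.6 to 43.3 CPM in hCG (median 29.7).

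Spp1 was higher in hCG dDG in median but missed the threshold. It was at 0.112, 0.789, 1.31, 0.247, 0.312 and 0.466 CPM in Ctrl dDG and at 0.259, 1.67, 1.29, 2.77, 4.44 and 7.49 CPM in hCG dDG, libraries 1 to 6. These rest on 54 reads in all 6 Ctrl and 302 in all 6 hCG libraries. Among hCG libraries 4 of 6 exceeded every Ctrl library, with a log2 fold change of 2.46 ± 0.70 (SE, edgeR adjusted p = 0.0503). DESeq2 gave 2.46 with an adjusted p of 0.00264. Without hCG library 6, in which choroid plexus transcripts were high, the value was 1.94 (edgeR adjusted p = 0.0931). It passed without hCG library 1 (2.69, edgeR adjusted p = 0.0158) and without Ctrl library 3 (2.95, edgeR adjusted p = 0.0433), so the side of the threshold depended on the tool and on single libraries.

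**Figure D4:**
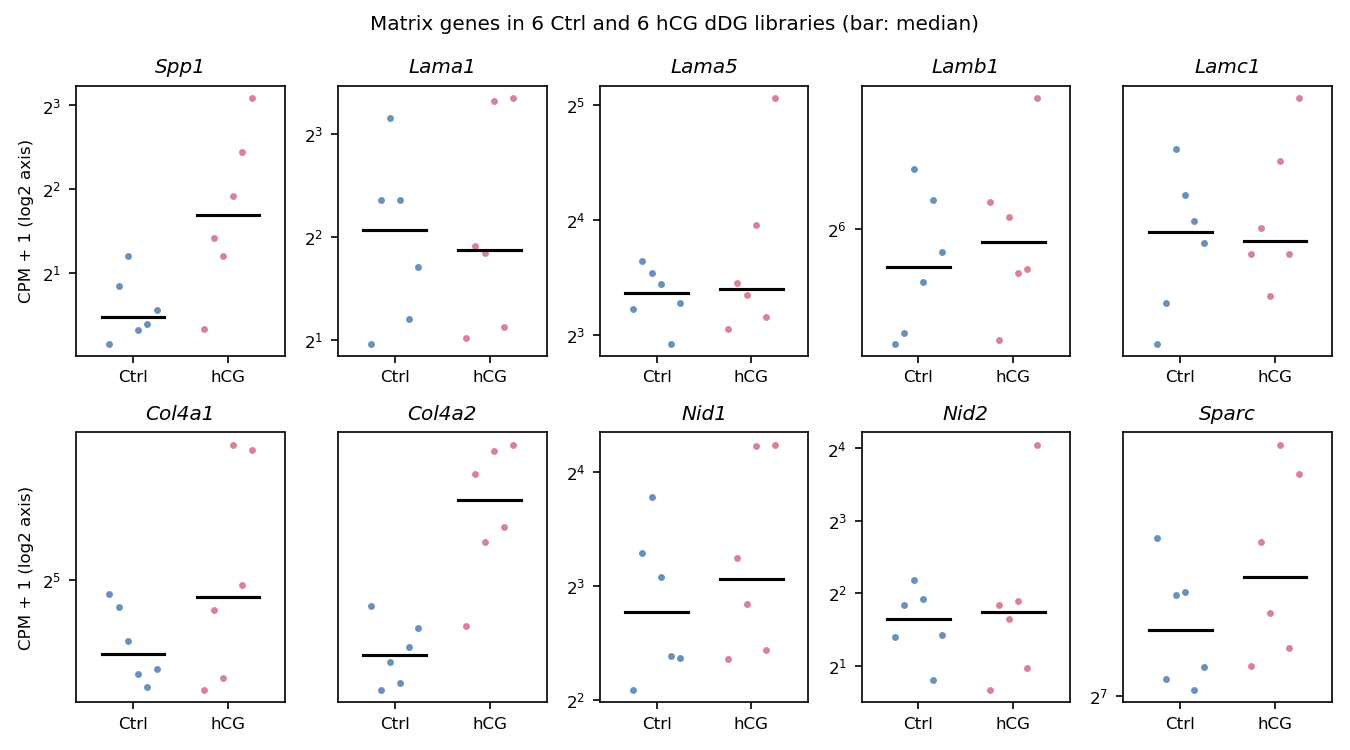
Level of each gene in the dDG as CPM + 1 on a log2 axis that differs between panels, with 1 point per library (6 Ctrl, 6 hCG) and a bar at the median. Col4a2 separates the groups except for 1 hCG library, Spp1 is higher in 4 of 6 hCG libraries, and the other 8 genes overlap.

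The other 8 genes had adjusted p-values from 0.267 to 0.815 in edgeR. Laminin chains Lamb1 (0.07 ± 0.09, SE) and Lamc1 (0.06 ± 0.08) did not pass, at medians of 59.5 and 61.8 CPM for Lamb1 and of 48.7 and 48.0 CPM for Lamc1 in Ctrl and hCG. Lama1 was at a median of 3.21 CPM in Ctrl and 2.67 CPM in hCG, and its log2 fold change of 0.31 ± 0.65 became -0.04 without hCG library 4 and -0.065 without hCG library 6. Lama5 (0.55 ± 0.35) and Nid2 (0.92 ± 0.72) were highest in hCG library 6, at 32.4 and 15.6 CPM. Without that library Lama5 was at 0.08, Nid1 at 0.27 and Nid2 at -0.27. Nid1 (0.53 ± 0.47) and Sparc (0.15 ± 0.09) overlapped between groups.

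In brain tissue these genes are known from vessels and meninges, and their levels were set beside means of marker lists after the data had been seen (60 relations, exact permutation test over 720 pairings, adjusted over the 60). Lama1 followed the meningeal and fibroblast markers in Ctrl (r 0.97, n = 6, rho 0.94, exact permutation adjusted p = 0.0417 for r and 0.125 for rho) and had r of 0.99 with them in hCG (n = 6, exact permutation adjusted p = 0.0583). Among the hCG libraries Lama1 (r 0.98), Nid1 (0.99) and Sparc (0.99) followed the endothelial markers (n = 6, exact permutation adjusted p = 0.0417 each for r), while rho was 0.94, 0.94 and 1.00 and did not pass (exact permutation adjusted p = 0.125 each). Without the 2 farthest libraries these 3 values were 0.90, 0.94 and 0.95. For Col4a2 r with the endothelial markers was -0.49 in Ctrl and 0.91 in hCG (n = 6, exact permutation adjusted p = 0.476 and 0.0583). The summed level of the 9 endothelial markers was 125.0 to 210.7 CPM in Ctrl and 140.2 to 337.6 CPM in hCG, of which 1 (Ly6c1, 0.84 ± 0.16, edgeR adjusted p = 0.00863) was called higher. Of the 20 relations with the microglia markers none passed, and Spp1 had r of 0.01 in Ctrl and 0.26 in hCG with them (n = 6, exact permutation adjusted p = 0.976 and 0.745). Of 7 microglia markers 3 were higher in hCG: Tmem119 (0.31 ± 0.08, edgeR adjusted p = 0.0353), C1qa (0.29 ± 0.08, edgeR adjusted p = 0.0408) and C1qb (0.34 ± 0.09, edgeR adjusted p = 0.0408). Their summed level was 227.2 to 281.5 CPM in Ctrl and 263.5 to 323.8 CPM in hCG. Over all genes tested in the dDG 4.66% were called higher. Of 8 markers of dentate granule neurons and neurons 3 were higher too, with a median log2 fold change of 0.33 against 0.19 for the microglia markers. The part of endothelial cells, microglia or neurons in the levels of Col4a2 and Spp1 was not tested.

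Of the 115 other pathway genes 103 were tested in the dDG (edgeR), where 6 were higher and 1 lower, 6.8% against 7.86% of all genes. Smoc2, a matricellular protein related to Sparc, rose from a median of 96.2 to 118.8 CPM with no overlap between groups (0.30 ± 0.06, SE, edgeR adjusted p = 0.00604). Nephronectin, Npnt, a basement membrane ligand of integrin, was higher as well (0.33 ± 0.08, edgeR adjusted p = 0.0236). The integrin subunits Itga9 (0.81 ± 0.21, edgeR adjusted p = 0.0264) and Itgb5 (0.33 ± 0.09, edgeR adjusted p = 0.04), the kinase Ptk2 (0.25 ± 0.06, edgeR adjusted p = 0.0158) and Plod3, a lysyl hydroxylase of collagen (0.30 ± 0.08, edgeR adjusted p = 0.0261), were higher too. Colgalt1, which adds galactose to collagen, was the 1 gene lower, from a median of 84.3 to 66.3 CPM (-0.35 ± 0.07, edgeR adjusted p = 0.00955), and all 6 hCG libraries lay below the lowest Ctrl library. With 1 library left out, Itgb5 lost its call in 7 of 12 fits, Itga9 and Plod3 in 4 each and Npnt in 3. Smoc2, Ptk2 and Colgalt1 kept theirs in all 12.

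In oocytes 3 of the 10 genes passed the filter (edgeR, adjusted over 9551 genes), none was called, and 3.99% of all genes tested were (1.33% higher and 2.66% lower). Lamb1 was abundant there, at 565.8 to 1182 CPM in Ctrl (median 668.8) and 620.5 to 867.8 CPM in hCG oocytes (median 719.4), with a log2 fold change of -0.03 ± 0.16 (SE, edgeR adjusted p = 0.94). Lamc1 was at 12.7 to 27.01 CPM in Ctrl (median 17.9) and 14.4 to 82.6 CPM in hCG oocytes (median 22.3). Its log2 fold change of 0.99 ± 0.39 (SE, edgeR adjusted p = 0.163) came with 2 hCG libraries, 3 and 4, at 72.0 and 82.6 CPM and the other 4 within the Ctrl range. Col4a1 was at 0.197 to 8.79 CPM in Ctrl and 1.94 to 8.30 CPM in hCG (0.31 ± 0.54, edgeR adjusted p = 0.813). Before adjustment 1 of the 3, Lamc1, had p below 0.05 in edgeR (p = 0.0187), and DESeq2 gave it an adjusted p of 0.0871.

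The other 7 genes had few counts in oocytes. Nid2 had 0 counts in all 12 libraries, which allows up to 0.434 to 1.26 CPM per library (3 counts of the library total, counting error only). Spp1 had 5 counts in 1 Ctrl library and 3 and 1 in 2 hCG libraries, and 0 in the others. Of the 2 alpha chains Lama1 stayed at or below 1.78 CPM and Lama5 at or below 6.72 CPM, so of the 4 laminin chains Lamb1 and Lamc1 passed the filter in these oocyte libraries. The 3 tables were made and scaled separately, so levels set side by side across oocytes, blastocysts and dDG are a description.

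**Figure D5:**
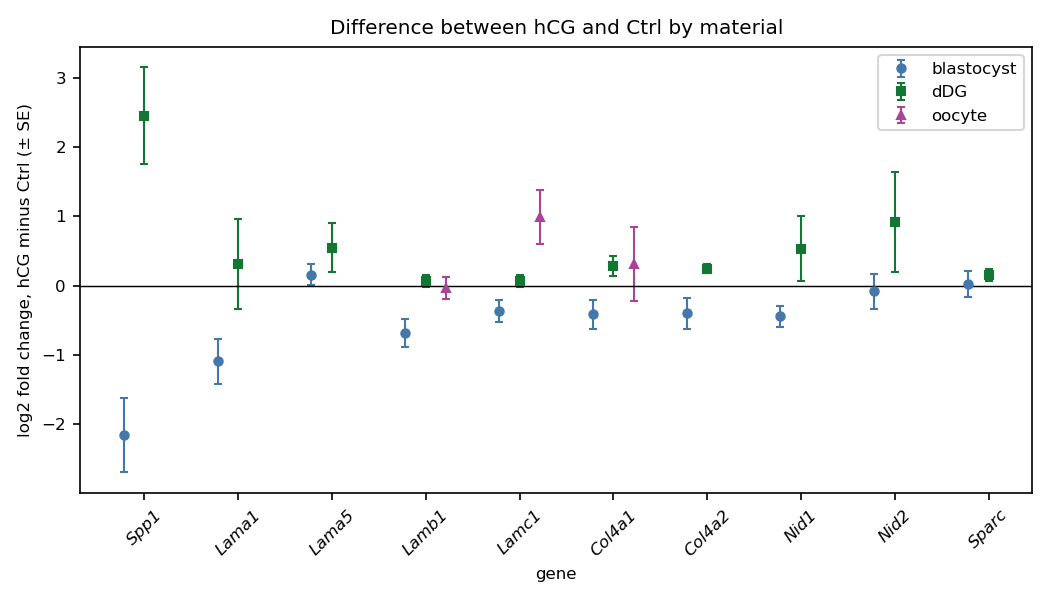
Log2 fold change of hCG against Ctrl with its SE for each gene in blastocysts (limma on log2(CPM + 1), 28 libraries per group), dDG and oocytes (edgeR, 6 libraries per group), with oocyte values for the 3 genes that passed the filter. Spp1 lies at -2.16 in blastocysts and 2.46 in the dDG, and most other values lie within 1 of 0. The limma and edgeR values are on unlike scales.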

How the data were processed

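RNA was measured in 80 of the 124 samples of the series, and the other 44 are not analysed here. Per the submitters' processing notes FastQC, Trim Galore, Trimmomatic 0.32, STAR 2.7.6a, TopHat, Bowtie2, SAMtools 1.19.1 and HTSeq 0.12.4 were used with mm10/GRCm38, and which tool made which table is not given in the sources used here. The deposited blastocyst values are a signal in which each library's estimated counts carry a factor of their own: 89.0 to 93.5% of a library's values were whole multiples of 1 step (tolerance 0.005), and values were divided by that step to give estimated reads. The authors' deposited dDG values are expected counts, summed per symbol and rounded here. The authors' deposited oocyte values are counts.

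Genes needed a count of at least 10 in enough libraries and a total of 15 (edgeR's filter). Blastocysts were tested with limma 3.58.1 on log2(TMM CPM + 1), with trend and robust options, and dDG and oocytes with edgeR 4.0.16 quasi-likelihood tests in R 4.3.3, with Benjamini-Hochberg adjustment over all genes tested and a threshold of 0.05. DESeq2 1.42.0, other scalings, filters, pseudocounts, covariates and left-out libraries were tried as alternatives. Correlations within a group used log2(CPM + 1) and 100000 permutations, for which 1e-05 is the smallest p they can give (scipy 1.17.1). The fits were tested on simulated data. Standard errors come from the spread between libraries, and the oocyte floor covers counting error only. Symbols that read as dates, 25 for the dDG and 23 for oocytes, name no gene and were left out of totals and tests. Levels per length were planned but not computed, since no lengths were used, so no levels are compared between genes.

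The members and gene lists were chosen with earlier results of these data known. Pathway genes named are those past the threshold, up to 4 per list by smallest p, or the 2 with the highest mean CPM where none passed (1 gene is not reported here), and genes most like a member are the 5 with the highest mean rho. Fbln1, Efemp1, Adam10 and the named lineage markers were added after their values were seen.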

Additional observations from a re-analysis of the deposited data

Results flagged for a closer look

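Among 38 groups of 6 libraries, 6 had 1 library far from the rest, with a gap to its neighbour of more than 0.625 of the group's range. Chance flags about 1 in 20 groups. In hCG dDG library 6, which also held the most choroid plexus and meningeal transcripts of its group, Lama5 was at 32.4 CPM and Nid2 at 15.6 CPM. The part of those cells in the values was not tested. In oocytes Lamb1 was at 1182 CPM in Ctrl library 4 and Nid1 at 5.80 CPM in Ctrl library 2. Spp1 was at 1.15 CPM in Ctrl library 1 and at 0.617 CPM in hCG library 1, which rest on 5 and 3 counts.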

How the results depend on the processing

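Of 541 comparisons with another setting 476 were labelled the same, and of 1980 with 1 library left out 1838 were. For tested values the label means the same direction and side of the threshold, and for counts of genes or relations a value within a fixed factor. For the blastocyst fold changes of the genes described here it means a shift smaller than their mean SD within groups. A turned sign of a small blastocyst value could therefore still be labelled the same. For blastocysts the count of genes higher (942) was 3655 on unscaled values, 576 with edgeR and 334 with genes detected as a covariate. The count of genes lower (824) was 15 on unscaled values, 437 with that covariate and 482 without the 5 libraries that held both Xist and Y-linked transcripts. The share of calls that were higher was 53.3%, and 62.1% without TMM, 99.6% unscaled, 37.2% with edgeR, 43.6% with DESeq2 and 43.3% with genes detected as a covariate. DESeq2 called 706 genes lower in the dDG (443 with edgeR), and 264 higher and 427 lower in oocytes (127 and 254). The number of hCG pairs past the threshold was 15 without the 5 libraries. On unscaled values the sign turned for Itga6 (0.0033), Lims1 (0.026), Ppib (0.19) and Adam10 (0.13). It also turned there for Lamc1 (0.06), Col4a1 (0.004), Col4a2 (0.06) and Nid2 (0.26), and for Sparc (-0.37) with genes detected as a covariate. The causes were not tested.

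With 1 library left out, blastocyst counts ran from 794 to 1261 higher and from 629 to 1020 lower, dDG counts from 369 to 683 and from 267 to 547, and oocyte counts from 69 to 292 and from 166 to 363. The dDG count of genes higher was 403, 415 and 369 without Ctrl libraries 2, 3 and 6, and that of genes lower 277, 267 and 275 without them and 288 without hCG library 4. The oocyte count of genes higher was 80, 292 and 69 without Ctrl libraries 3, 4 and 5 and 79 and 78 without hCG libraries 1 and 4, and that of genes lower 166 without Ctrl library 3. The sign turned in the dDG for Lama1 (-0.04 and -0.065 without hCG libraries 4 and 6, range -0.065 to 0.74) and Nid2 (-0.27 without hCG library 6, range -0.27 to 1.15), and in oocytes for Lamb1 (0.15 without Ctrl library 4 and 0.01 without hCG library 3, range -0.12 to 0.15). In blastocysts the range held both signs for Nid2 (-0.18 to 0.0125) and for Sparc (-0.057 to 0.086).

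With the replicate number as a block the counts were 840 higher and 690 lower in blastocysts, 387 and 197 in the dDG and 119 and 216 in oocytes, and oocyte Lamb1 was at 0.0059. In the dDG the block took the calls of Col4a2 (edgeR adjusted p = 0.0801), Itga9 (0.0745), Itgb5 (0.0669) and Plod3 (0.0643). The numbers do not pair the libraries: 1 of 28 in blastocysts, 0 of 6 in the dDG and 2 of 6 in oocytes correlated best with the same number in the other group.

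Depth limits Nid2 in blastocysts, Spp1 in the dDG and 7 of the 10 genes in oocytes, where few reads stand behind each value.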
